A study of Mus musculus with 24 samples.

Results

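The 9 genes described here encode ligands, an antagonist and receptors of the interleukin-1 (IL-1) and tumour necrosis factor (TNF) families, and they were followed across the 6 groups of sorted mouse lung cells. They were the ligand genes Il1a, Il1b, Il18 and Tnf, the antagonist gene Il1rn and the receptor genes Il1r1, Il1rap, Tnfrsf1a and Tnfrsf1b. They were found by gene symbol among the Ensembl identifiers of both deposited tables, and all 9 of 9 were present among 48795 identifiers. Of them, 8 in the epithelial table and 9 in the mesenchymal table had enough signal to be tested, and Tnf in the epithelium is given as values only.

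IL-1 alpha and IL-1 beta act through the receptor Il1r1, which signals once the accessory protein Il1rap joins it, and Il1rn encodes a secreted protein that occupies the same receptor without starting a signal. IL-18, another cytokine of the IL-1 family, has receptor chains of its own. TNF acts on the widely expressed receptor Tnfrsf1a, which carries a death domain, and on Tnfrsf1b, which does not. In the lung, macrophages, monocytes and neutrophils are well-known sources of IL-1 beta and TNF, while epithelial cells and fibroblasts answer both cytokines with NF-kappaB-driven production of chemokines, growth factors for myeloid cells and acute-phase proteins.

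The mice were female Balb/c animals aged 8 weeks, and lungs were taken 7 days after irradiation or sham irradiation. In the depleted group the lungs were irradiated with 13 Gy and the mice received daily injections of anti-Ly6G, an antibody to a neutrophil surface protein. The irradiated group had the same lung dose and a control IgG antibody, and the sham group was sham-irradiated and had the control IgG antibody, so every group received an antibody. Each group held 4 mice and 4 libraries in each compartment, which made 24 libraries. Cells lacking CD45 (leukocytes), CD31 (endothelium) and Ter119 (red cell lineage) were sorted into an EpCAM-positive epithelial and an EpCAM-negative mesenchymal fraction. The protocol names CD45 a second time where the cell type entries name CD31. The labels do not say whether epithelial and mesenchymal libraries of the same number came from the same mouse, and the fit over both compartments treats them as independent.

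Values are normalised read counts, the reads of a gene divided by 1 size factor per library. The libraries held between 8159062 and 13373329 reads in the epithelium and between 7366672 and 11408083 reads in the mesenchyme. The defining markers were highest in the compartment they mark. Epcam averaged 1051, 1071 and 1151 normalised counts in depleted, irradiated and sham epithelium and 20.2, 13.1 and 8.55 in the mesenchyme, while Col1a1 averaged 38157, 34826 and 34972 in the mesenchyme. RNA of cells that the gate should remove was also present. The leukocyte gene Ptprc, which encodes CD45, averaged 130, 185 and 68.4 normalised counts in depleted, irradiated and sham epithelium and 238, 355 and 193 in the mesenchyme, and all 15 listed leukocyte genes had reads in both tables. The sorted compartments also held RNA of each other, with Col1a1 at 1580, 1409 and 1203 normalised counts in depleted, irradiated and sham epithelium and the alveolar type II cell gene Sftpc at 2679, 3444 and 2032 in the mesenchyme, against 340147, 375300 and 379369 in the epithelium. The mean log2 level of endothelial markers differed by 0.99 between irradiated and sham epithelium (exact permutation p = 0.0286, or 0.0914 adjusted over 48 marker comparisons). It differed by 0.92 between irradiated and sham mesenchyme (exact permutation p = 0.0571, adjusted 0.144). Epithelial markers in the mesenchyme differed by 0.91 between irradiated and sham cells and by 1.03 between depleted and sham cells (exact permutation p = 0.0286, adjusted 0.0914, in each). Between depleted and irradiated mesenchyme the differences were -0.35 for endothelial and 0.12 for epithelial markers (exact permutation p = 0.229 and 0.543). The part of these cells in the receptor values was not tested. Ly6g was under the filter on low values in both tables. Each table was scaled on its own, so levels are compared within a compartment.

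Per kilobase of exon, Tnfrsf1a, Il1r1 and Tnfrsf1b had the highest mean levels in every group, in that order, with libraries of Tnfrsf1b and Il1b overlapping in irradiated epithelium and irradiated mesenchyme, and the accessory gene Il1rap had levels near or below those of the ligand gene Il1b. In depleted mesenchyme Tnfrsf1a had 723 ± 54.9 normalised counts per kb, Il1r1 416 ± 61.9, Tnfrsf1b 134 ± 5.202, Il1rap 41.0 ± 6.76 and Il1b 40.2 ± 19.2 (SD, n = 4). Il18, Il1a, Tnf and Il1rn followed with 8.45, 5.76, 5.57 and 2.03 counts per kb. In sham mesenchyme the order was Tnfrsf1a at 392 ± 20.4, Il1r1 at 220 ± 10.2, Tnfrsf1b at 105 ± 10.6, Il1b at 44.4 ± 20.0 and Il1rap at 33.5 ± 3.03 counts per kb. The first 3 stood apart in both groups, with every library of one gene above every library of the next, whereas the ranges of Il1b and Il1rap overlapped there and in sham epithelium. In irradiated mesenchyme every Il1b library was above every Il1rap library, at 92.2 ± 36.3 against 30.4 ± 4.52 counts per kb. The same held in depleted epithelium, at 23.5 ± 7.23 against 14.2 ± 0.696, and in irradiated epithelium, at 42.9 ± 26.0 against 12.7 ± 1.81 counts per kb. Among the 4 lowest genes of sham mesenchyme every neighbouring pair overlapped. In sham epithelium the order began likewise, with Tnfrsf1a at 271 ± 15.2, Il1r1 at 136 ± 15.1 and Tnfrsf1b at 43.2 ± 2.54 counts per kb. The length used is that of all annotated exons of a gene, so it understates genes such as Il1rap, whose long and short forms share it.

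In the mesenchyme, depletion within irradiated lungs was accompanied by higher Il1r1 and Tnfrsf1a, the main signalling receptors of IL-1 and TNF. Il1r1 (ENSMUSG00000026072, GRCm38 chromosome 1, start 40225080, end 40317257, plus strand) had 2474, 2679, 2264 and 3184 normalised counts in the 4 depleted libraries, against 1262, 1491, 1463 and 1333 in irradiated and 1362, 1336, 1481 and 1422 in sham libraries. Every depleted library lay above every other mesenchymal library, and irradiated and sham libraries overlapped. Il1r1 was 1.90-fold higher in depleted than in irradiated mesenchyme (log2 change 0.93 ± 0.0930 SE, adjusted p = 7.36e-05) and 1.88-fold higher than in sham mesenchyme (adjusted p = 1.24e-05). Between irradiated and sham mesenchyme its log2 change was -0.02 ± 0.0930 (adjusted p = 0.948).

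Tnfrsf1a (ENSMUSG00000030341, GRCm38 chromosome 6, start 125349362, end 125362484, plus strand) moved in both steps. It had 1841, 1942, 1692 and 2022 normalised counts in depleted, 1330, 1316, 1400 and 1151 in irradiated, and 989, 1049, 957 and 1071 in sham mesenchyme. The 3 groups formed a stepped order with no overlap between any of them. It was 1.44-fold higher in depleted than in irradiated mesenchyme (log2 change 0.53 ± 0.0763, adjusted p = 0.0013) and 1.28-fold higher in irradiated than in sham mesenchyme (log2 change 0.35 ± 0.0763, adjusted p = 0.0213). The step from sham to irradiation was not called without irradiated replicate 2, irradiated replicate 3, sham replicate 1 or sham replicate 3, where the adjusted p was 0.0739, 0.0527, 0.0569 and 0.0833 in turn. Nor was it called once the leukocyte level entered the fit as a covariate (log2 change 0.32, adjusted p = 0.533).

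The other receptor genes of the mesenchyme moved less. Tnfrsf1b (ENSMUSG00000028599, GRCm38 chromosome 4, start 145213463, end 145246870, minus strand) had 535, 516, 487 and 507 normalised counts in depleted, 457, 444, 445 and 410 in irradiated, and 360, 383, 406 and 455 in sham mesenchyme. Depleted libraries lay above both other groups, which overlapped. It was called in depleted against sham mesenchyme (1.28-fold higher, log2 change 0.35 ± 0.0761, adjusted p = 0.00558) and was not called in depleted against irradiated mesenchyme (log2 change 0.22 ± 0.0761, adjusted p = 0.137). Il1rap averaged 466 ± 76.8 in depleted, 346 ± 51.3 in irradiated and 381 ± 34.4 in sham mesenchyme (SD, n = 4), and depleted and irradiated libraries overlapped. Its log2 change in depleted against irradiated mesenchyme was 0.43 ± 0.126 (adjusted p = 0.0867), and it was called by DESeq2 (adjusted p = 0.0429) and by limma without depleted replicate 2 (adjusted p = 0.0403).

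Counted over the 9 genes tested in the mesenchyme, 2 were called in depleted against irradiated cells, both higher, where 2.69% of all 16624 tested genes were called. A gene was called at an adjusted p under 0.05 over all tested genes. Irradiated against sham cells gave 1 of 9 called, with 3.8% of all genes called, and depleted against sham cells gave 3 of 9 called, with 15.2% of all genes called. The calls of Il1r1 and Tnfrsf1a in depleted against irradiated mesenchyme held under each alternative scaling, filter, pseudocount and test and without each library in turn, with log2 changes of 0.83 to 1.00 for Il1r1 and 0.47 to 0.58 for Tnfrsf1a. With the leukocyte marker level of each library as a covariate the log2 changes were 0.92 for Il1r1 (adjusted p = 0.000192) and 0.54 for Tnfrsf1a (adjusted p = 0.00247). In sorted bulk cells, fewer cells of a type and less RNA per cell cannot be told apart. The mean log2 level of the 10 listed mesenchymal markers differed by 0.03 between depleted and irradiated mesenchyme (exact two-sided permutation p = 0.886).

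**Figure D1:**
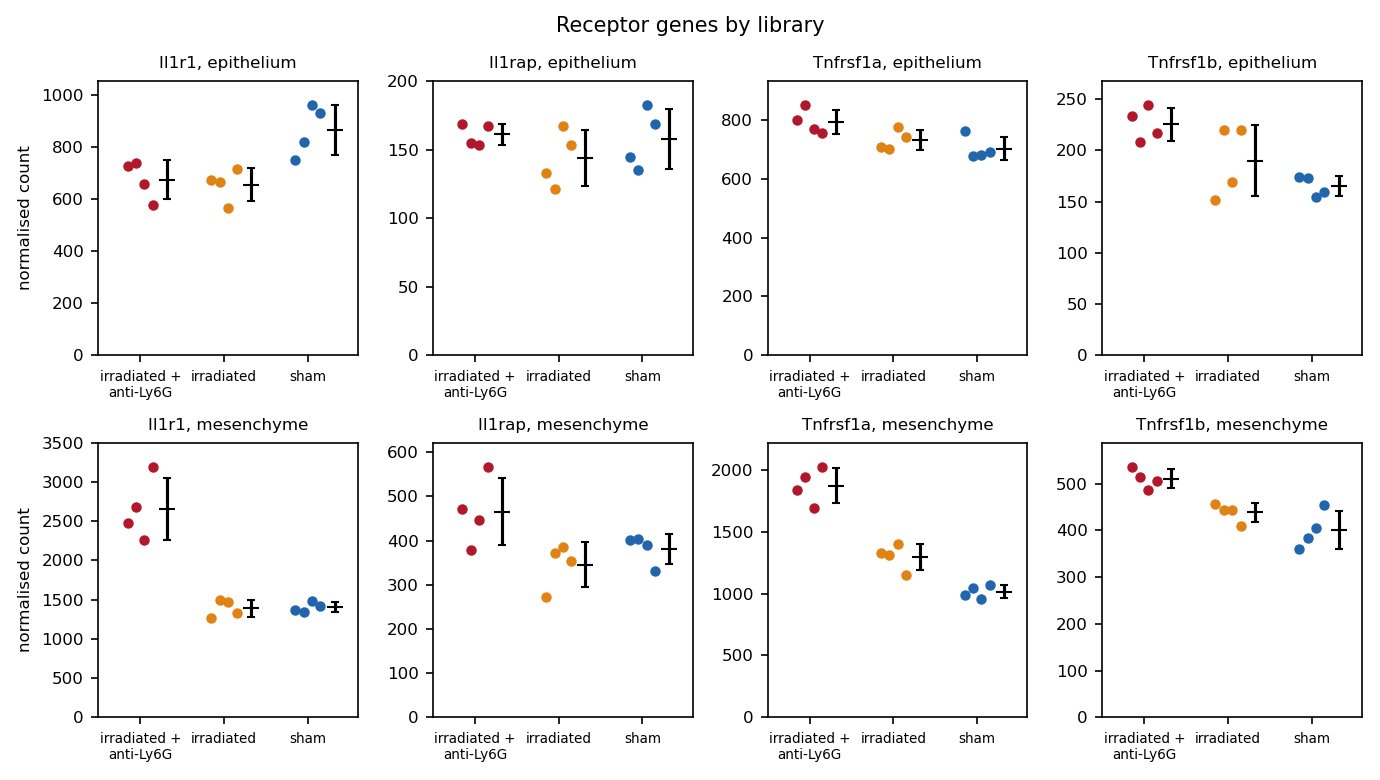
Normalised counts of the 4 receptor genes in each library (points), with the mean and SD of each group of 4 (black), in epithelium (top) and mesenchyme (bottom). In the mesenchyme the depleted libraries of Il1r1 sit between 2264 and 3184, above all irradiated and sham libraries, and Tnfrsf1a steps down from depleted through irradiated to sham.

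The stretches of 250 bases just before the RefSeq starts of the 3 called receptor genes and of Il1b are shown because these genes moved differently between the groups. They are RefSeq sequences on GRCm38.p6, written 5′ to 3′ on the strand of the gene, and the reference strain is not Balb/c. Capitals mark matches, on either strand, to a TATA box (TATAAA), a GC box (GGGCGG), a kappaB-like motif (GGGNNNNNCC) or an AP-1 motif (TGACTCA).
Il1r1 first start, chr1:40224830-40225079, plus strand: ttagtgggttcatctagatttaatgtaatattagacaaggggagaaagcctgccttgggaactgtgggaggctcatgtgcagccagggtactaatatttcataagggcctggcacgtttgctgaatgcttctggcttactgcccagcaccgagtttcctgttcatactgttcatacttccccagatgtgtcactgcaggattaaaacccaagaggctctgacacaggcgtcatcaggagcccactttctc
Il1r1 second start, chr1:40266336-40266585, plus strand: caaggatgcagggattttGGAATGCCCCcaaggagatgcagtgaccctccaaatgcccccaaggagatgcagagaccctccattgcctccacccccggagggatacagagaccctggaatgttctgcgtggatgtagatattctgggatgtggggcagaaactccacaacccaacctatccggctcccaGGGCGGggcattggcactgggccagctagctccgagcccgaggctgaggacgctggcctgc
Tnfrsf1a, chr6:125349473-125349722, plus strand: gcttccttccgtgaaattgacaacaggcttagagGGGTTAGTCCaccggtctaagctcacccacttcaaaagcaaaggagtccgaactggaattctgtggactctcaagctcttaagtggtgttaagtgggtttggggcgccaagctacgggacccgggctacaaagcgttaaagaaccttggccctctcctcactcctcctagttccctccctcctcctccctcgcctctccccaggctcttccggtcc
Tnfrsf1b, chr4:145246871-145247120, minus strand: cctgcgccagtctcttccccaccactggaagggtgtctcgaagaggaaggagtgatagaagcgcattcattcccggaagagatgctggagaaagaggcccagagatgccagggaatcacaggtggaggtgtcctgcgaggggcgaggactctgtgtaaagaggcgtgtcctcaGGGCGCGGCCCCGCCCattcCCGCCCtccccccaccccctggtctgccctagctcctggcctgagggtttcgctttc
Il1b, chr2:129371140-129371389, minus strand: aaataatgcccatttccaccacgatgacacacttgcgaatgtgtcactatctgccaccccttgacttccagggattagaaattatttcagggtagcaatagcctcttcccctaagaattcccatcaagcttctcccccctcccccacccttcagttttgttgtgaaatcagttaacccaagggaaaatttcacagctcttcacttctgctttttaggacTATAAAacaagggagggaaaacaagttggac
The window before the first start of Il1r1 held none of the 4 motifs, and the window before its second start, inside the gene, held 1 kappaB-like match and 1 GC box. The window of Tnfrsf1a, which lies inside the GENCODE span given above because that span begins upstream of the RefSeq start, held 1 kappaB-like match, at base -216. That of Tnfrsf1b held 3 kappaB-like matches and 2 GC boxes, some of which overlap. The window of Il1b held a TATA box at base -31 and none of the other motifs, and its fellow ligand genes Il1a and Tnf had a TATA box at bases -32 and -29, while Il18 had those letters at base -175. Of 32851 RefSeq windows of this length, 45.8% held the kappaB-like motif, 32.7% the GC box, 12.4% the TATA box and 4.46% the AP-1 motif. The matches are a description of these letters.

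In the epithelium Il1r1 was lower after irradiation. It had 726, 740, 656 and 577 normalised counts in depleted, 673, 665, 566 and 716 in irradiated and 751, 820, 959 and 928 in sham epithelium. Every sham library lay above all libraries of both irradiated groups, which overlapped each other. Il1r1 fell to 655 ± 63.7 in irradiated epithelium, against 865 ± 96.3 in sham epithelium (SD, n = 4; log2 change -0.40 ± 0.0948, adjusted p = 0.0297). In depleted against sham epithelium the log2 change was -0.36 ± 0.0948 (adjusted p = 0.0221), and in depleted against irradiated epithelium it was 0.04 ± 0.0948 (adjusted p = 0.917). The lower level in irradiated epithelium was not called without irradiated replicate 2, irradiated replicate 3, sham replicate 3 or sham replicate 4, with adjusted p of 0.0864, 0.0637, 0.104 and 0.102 in turn. With the leukocyte covariate the log2 change was -0.35 (adjusted p = 0.887), and with the replicate block the adjusted p was 0.0739. In depleted against sham epithelium the call was lost without depleted replicate 4 (adjusted p = 0.0687), sham replicate 3 (adjusted p = 0.0761) or sham replicate 4 (adjusted p = 0.0706), with the leukocyte covariate (log2 change -0.32, adjusted p = 0.368) and with the replicate block (adjusted p = 0.0553).

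Tnfrsf1b was the receptor gene that was called higher in the epithelium. It had 233, 208, 244 and 217 normalised counts in depleted, 152, 220, 169 and 219 in irradiated and 174, 173, 155 and 159 in sham epithelium. Depleted libraries lay above all sham libraries, and irradiated libraries overlapped both. The log2 change in depleted against sham epithelium was 0.45 ± 0.113 (adjusted p = 0.016), or 0.0539 for the adjusted p without sham replicate 3. With the leukocyte covariate the log2 change was 0.25 (adjusted p = 0.548). The leukocyte level differed by 1.20 between depleted and sham epithelium (exact permutation p = 0.0286, adjusted 0.0914). Tnfrsf1a averaged 794 ± 41.2, 733 ± 34.8 and 703 ± 39.3 in depleted, irradiated and sham epithelium (SD, n = 4) and was not called in any of the 3 comparisons. Without sham replicate 1 it was called in depleted against sham epithelium (log2 change 0.21, adjusted p = 0.0337). Il1rap averaged 161 ± 7.91, 144 ± 20.6 and 157 ± 21.8 in depleted, irradiated and sham epithelium, with overlapping libraries.

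Over the 8 genes tested in the epithelium, 1 was called lower in irradiated against sham cells, where 3.14% of all 16626 tested genes were called. Depleted against sham cells gave 1 called higher and 1 lower, with 11.3% of all genes called. Depleted against irradiated cells gave 0 of 8 by limma, by edgeR and by DESeq2, with 0.475% of all genes called, and 1 gene, Tnfrsf1b, had an unadjusted p under 0.05 (log2 change 0.26 ± 0.113), as 12.4% of all genes did.

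The response to depletion was set side by side in the compartments by testing the difference of the log2 changes, epithelium minus mesenchyme. For Il1r1 the difference was -0.88 ± 0.139 (adjusted p = 0.00183), from log2 changes of 0.04 in epithelium and 0.93 in mesenchyme. For Tnfrsf1a it was -0.41 ± 0.0931 (adjusted p = 0.038), from 0.12 in epithelium and 0.53 in mesenchyme. These were 2 of 8 genes called, where 0.596% of 15092 genes tested in both tables were called. The call of Il1r1 held under each alternative run, with differences of -0.96 to -0.79. That of Tnfrsf1a was lost without a filter on low values (adjusted p = 0.0619), with same-numbered libraries of the compartments paired (adjusted p = 0.0542) and without any one of 11 of the 24 libraries, which were epithelial depleted replicates 1, 3 and 4, epithelial irradiated replicates 1, 3 and 4, mesenchymal depleted replicates 1, 2 and 4 and mesenchymal irradiated replicates 2 and 4, with adjusted p up to 0.0966. For irradiation against sham the difference was called for 0 of 8 genes by limma, with 0.629% of all genes called, and 2 genes, Il1r1 (difference -0.38 ± 0.139) and Tnfrsf1a (difference -0.29 ± 0.0931), had an unadjusted p under 0.05, as 13.3% of all genes did. For Il18 the depletion difference was 1.29 ± 0.579 (adjusted p = 0.402). Il18 passed the filter in each table only through the group where it was highest.

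**Figure D2:**
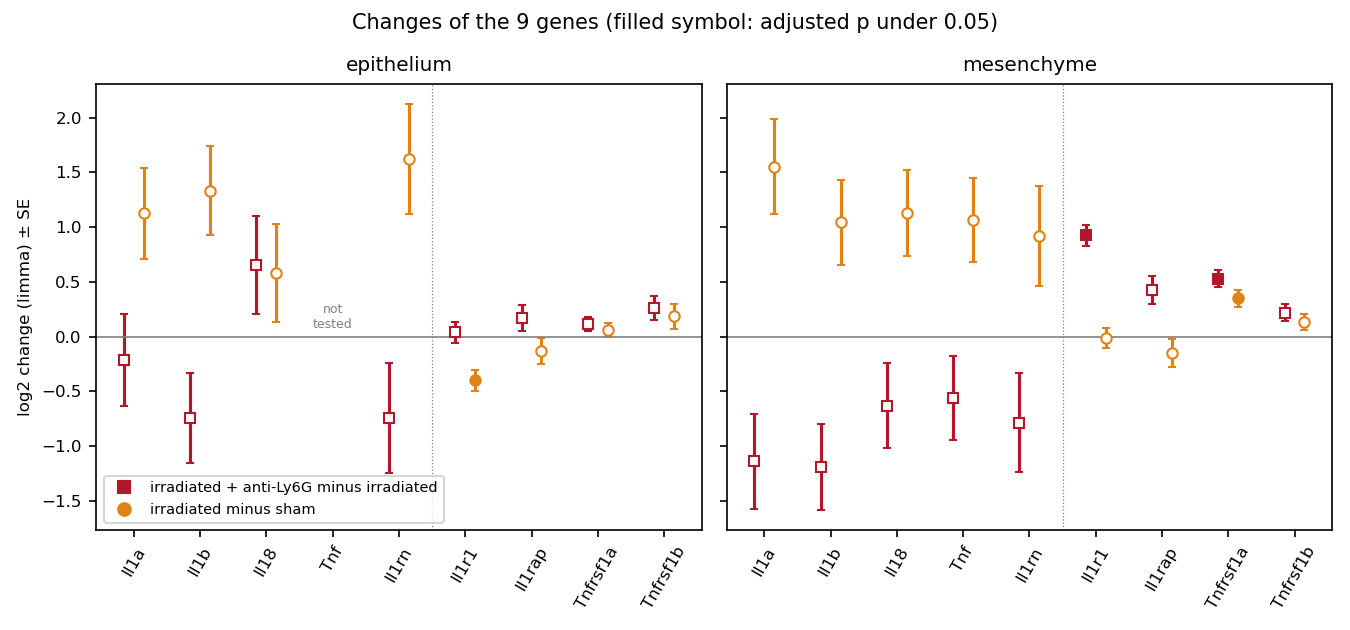
Log2 changes with standard errors from limma for the 9 genes in epithelium (left) and mesenchyme (right), depleted minus irradiated (squares) and irradiated minus sham (circles). Filled symbols mark an adjusted p under 0.05. The filled squares are Il1r1 at 0.93 and Tnfrsf1a at 0.53, both in the mesenchyme. The 2 contrasts share the irradiated libraries.

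The ligand genes were called in none of the 6 comparisons by limma, and their libraries varied widely. Il1b (ENSMUSG00000027398, GRCm38 chromosome 2, start 129364570, end 129371139, minus strand) was the ligand gene with the highest level per kb in every group. In the mesenchyme it had 62.5, 131, 53.2 and 59.5 normalised counts in depleted, 143, 240, 226 and 93.9 in irradiated and 60.9, 139, 82.8 and 55.7 in sham libraries. The irradiated libraries were mostly the higher ones, but all 3 groups overlapped. Its log2 change was -1.19 ± 0.389 in depleted against irradiated mesenchyme (adjusted p = 0.137), 1.05 ± 0.389 in irradiated against sham mesenchyme (adjusted p = 0.155) and -0.15 ± 0.389 in depleted against sham mesenchyme (adjusted p = 0.851). In the epithelium Il1b had 39.3, 63.6, 45.1 and 31.1 normalised counts in depleted, 65.6, 155, 47.7 and 58.7 in irradiated and 39.0, 46.7, 24.1 and 14.6 in sham libraries. All irradiated libraries were above all sham libraries, with a log2 change of 1.34 ± 0.411 (adjusted p = 0.117 by limma, 0.00822 by DESeq2).

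Leukocyte RNA and Il1b both had higher means in irradiated than in sham cells. Summed over 14 listed leukocyte genes without Lcp1, which gave 79.1% to 91.6% of the epithelial sums, the counts ran from 789 to 1808 in depleted, 1053 to 2366 in irradiated and 374 to 1067 in sham mesenchyme, and from 548 to 779, 507 to 1253 and 126 to 434 in depleted, irradiated and sham epithelium. Replicate 2 had the highest leukocyte sum in each of the 6 groups, and also the highest Il1b. The mean log2 level of all 15 leukocyte genes differed by 1.24 between irradiated and sham mesenchyme and by 1.42 between irradiated and sham epithelium (exact two-sided permutation p = 0.0286 in each, the smallest that 4 against 4 libraries can give, or 0.0914 adjusted over 48 marker comparisons). Between depleted and irradiated cells it differed by -0.38 in mesenchyme (exact permutation p = 0.343) and -0.22 in epithelium (exact permutation p = 0.571). Between depleted and sham cells it differed by 0.86 in mesenchyme (exact permutation p = 0.0857) and 1.20 in epithelium (exact permutation p = 0.0286). The log2 change of Il1b there was -0.15 and 0.59 in turn. With the leukocyte level as a covariate the log2 change of Il1b in irradiated against sham cells was -0.06 in mesenchyme (adjusted p = 0.994) and -0.34 in epithelium (adjusted p = 0.984). Among all tested genes 47 were called with the covariate and 631 without it in irradiated against sham mesenchyme, and 42 with it and 522 without it in epithelium. The leukocyte level itself differed between irradiated and sham cells, so a call lost with the covariate does not tell leukocyte RNA from the treatment.

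Markers of neutrophils, the target of the antibody, did not move together between depleted and irradiated cells. In the mesenchyme 2 of 10 tested neutrophil genes were called lower in depleted than in irradiated cells by limma and 0 higher. Of all tested genes 2.69% were called there. A log2 change above 0 was seen for 4 of the 10. By groups whose libraries do not overlap, 2 stood higher and 3 lower, where 10% of all tested genes stood apart. Csf3r, which encodes the receptor for granulocyte colony-stimulating factor, averaged 24.7 ± 5.23 in depleted and 145 ± 76.2 normalised counts in irradiated mesenchyme (log2 change -2.37 ± 0.391, adjusted p = 0.00711), a call that held without each library and with the leukocyte covariate. The chemokine receptor gene Cxcr2 averaged 9.56 ± 5.64 in depleted and 27.7 ± 6.39 in irradiated mesenchyme (log2 change -1.61 ± 0.409, adjusted p = 0.0471). That call was lost without depleted replicate 1, 3 or 4, any irradiated replicate, or sham replicate 1 or 3, with adjusted p up to 0.132, and with the leukocyte covariate (adjusted p = 0.0928). By edgeR 1 was called lower, and by DESeq2 2 were called lower and 1 higher. In the epithelium limma and edgeR called 0 of 9 between depleted and irradiated cells, and DESeq2 called 1, Csf3r. By limma 3 had an unadjusted p under 0.05, where 12.4% of all tested genes did. These genes were named after their values were seen. The mean log2 level of all 13 listed neutrophil genes differed by -0.20 between depleted and irradiated mesenchyme (exact permutation p = 0.543) and by -0.07 in epithelium (exact permutation p = 0.8). Between depleted and sham cells it differed by 1.29 in mesenchyme (exact permutation p = 0.0571, adjusted 0.144) and 1.77 in epithelium (exact permutation p = 0.0286, adjusted 0.0914). Between irradiated and sham cells it differed by 1.49 and 1.84 in turn (exact permutation p = 0.0286, adjusted 0.0914, in each). S100a8 averaged 103 ± 57.7 in depleted, 60.5 ± 19.3 in irradiated and 13.0 ± 7.90 normalised counts in sham mesenchyme, and S100a9 averaged 141 ± 79.6, 181 ± 66.8 and 39.9 ± 30.9 (SD, n = 4). Macrophage and monocyte genes differed by 1.40 between irradiated and sham mesenchyme (exact permutation p = 0.0286, adjusted 0.0914). Between depleted and irradiated mesenchyme they differed by 0.06 (exact permutation p = 0.829). The part that any of these cells had in the ligand values was not tested.

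Relative to the leukocyte sum without Lcp1, Il1b was lower in the depleted groups. Per 100 leukocyte counts, a quantity chosen after the values were seen, depleted mesenchyme had 6.62 ± 0.926 Il1b counts, irradiated mesenchyme 11.95 ± 4.17 and sham mesenchyme 13.1 ± 3.40 (SD, n = 4). The depleted libraries reached 7.54 at most and the irradiated ones began at 8.92, and the difference of -5.33 had an exact two-sided permutation p of 0.0286, or 0.0429 adjusted over 6 comparisons. In the epithelium the ratios were 7.05 ± 1.15, 10.2 ± 1.58 and 12.04 ± 1.08 in depleted, irradiated and sham cells, and depleted and irradiated libraries again did not overlap (difference -3.14, exact permutation p = 0.0286, adjusted 0.0429). With Lcp1 kept in the sum the difference between depleted and irradiated epithelium was -0.719 (exact permutation p = 0.143). That between depleted and sham epithelium then turned positive. Without any one depleted library in the mesenchyme, or without depleted replicate 1 or 4 or irradiated replicate 2 in the epithelium, the exact p was 0.0571.

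Il1a, the ligand that is active without cleavage, had few reads. It had 12.3, 16.2, 2.90 and 14.1 normalised counts in depleted, 17.5, 30.7, 22.4 and 22.0 in irradiated and 6.09, 13.2, 6.06 and 4.99 in sham mesenchyme, from 3 to 27 reads per library. All irradiated libraries were above all libraries of the other 2 groups. The log2 change was 1.55 ± 0.434 in irradiated against sham mesenchyme (adjusted p = 0.0567) and -1.14 ± 0.434 in depleted against irradiated mesenchyme (adjusted p = 0.176). The first was called by DESeq2 (adjusted p = 0.0166), with a pseudocount of 8 (adjusted p = 0.0371), without depleted replicate 3 (adjusted p = 0.0141) and without sham replicate 2 (adjusted p = 0.0264). In the epithelium Il1a had 10.1, 26.7, 4.51 and 13.2 normalised counts in depleted, 17.6, 13.4, 11.3 and 12.1 in irradiated and 4.88, 4.24, 8.93 and 5.204 in sham libraries. The irradiated libraries were all above the sham ones (log2 change 1.13 ± 0.419, adjusted p = 0.184), and the depleted ones spanned both. Il1a passed the filter on low values there only with irradiated libraries counted. In depleted against sham epithelium Il1a was called without depleted replicate 3 (adjusted p = 0.0357).

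Il18, Tnf and Il1rn were low as well. Il18 had 8.20, 10.8, 6.76 and 9.07 normalised counts in depleted, 12.4, 18.2, 11.2 and 14.6 in irradiated and 6.09, 13.2, 5.05 and 2.49 in sham mesenchyme, so irradiated libraries were above all depleted ones and overlapped sham. Its log2 change was 1.13 ± 0.390 in irradiated against sham mesenchyme (adjusted p = 0.11) and it was called without sham replicate 2 (adjusted p = 0.0264). Il18 and Tnf passed the filter on low values in the mesenchyme only with irradiated libraries counted. In the epithelium Il18 averaged 11.2 ± 0.289 in depleted, 7.54 ± 3.71 in irradiated and 4.57 ± 2.32 in sham cells, with depleted above all sham libraries (log2 change 1.24 ± 0.447, adjusted p = 0.0854) and a call without irradiated replicate 3 (adjusted p = 0.0476). It passed the filter of 10 normalised counts there only through the depleted libraries, at 10.8 to 11.4. Of the other libraries only irradiated replicate 4 reached it, at 11.3. Tnf averaged 9.12 ± 3.19, 13.8 ± 3.69 and 6.45 ± 3.29 in depleted, irradiated and sham mesenchyme, with overlapping libraries in each pair. In the epithelium it averaged 4.79 ± 2.00, 6.09 ± 2.69 and 4.05 ± 1.64, near the 2.36 to 3.81 normalised counts that a count of 0 allows. Il1rn averaged 11.2 ± 4.18, 21.04 ± 10.1 and 11.6 ± 8.37 in depleted, irradiated and sham mesenchyme and 7.43 ± 3.94, 13.2 ± 8.07 and 3.68 ± 2.45 in the epithelium (SD, n = 4). In sham epithelium Il1rn had 1 to 7 and Il18 2 to 7 reads per library, also near what a count of 0 allows.

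Read over the ligand and antagonist genes, limma called 0 of 5 in each mesenchymal comparison and 0 of 4 in each epithelial one. In irradiated against sham cells 4 of 5 had an unadjusted p under 0.05 in the mesenchyme and 3 of 4 in the epithelium, all higher, where 21% and 14.3% of all tested genes did. There edgeR called 0 and DESeq2 called 1 in each compartment. In depleted against irradiated mesenchyme 2 of 5 had an unadjusted p under 0.05, both lower (17.9% of all genes), and in depleted against sham epithelium 2 of 4 did, both higher (24.7%). Neither edgeR nor DESeq2 called any in those comparisons. In depleted against irradiated epithelium and in depleted against sham mesenchyme 0 had an unadjusted p under 0.05 (12.4% and 29.2% of all genes). By groups whose libraries do not overlap, 5 of the 9 genes stood apart in depleted against irradiated mesenchyme, with Il1r1, Tnfrsf1a and Tnfrsf1b higher and Il1a and Il18 lower, where 10% of all tested genes did so. In mesenchyme this held for 2 of 9 in irradiated against sham cells (11.8% of all genes) and 3 of 9 in depleted against sham cells (19.3%). In epithelium it held for 4 of 8 in irradiated against sham cells (8.83%), 0 of 8 in depleted against irradiated cells (6.41%) and 3 of 8 in depleted against sham cells (16.7%). The filter on low values bears on these counts. Il18 and Tnf in the mesenchyme, and Il1a and Il1rn in the epithelium, passed it only with irradiated libraries counted. Il18 in the epithelium passed it only through depleted libraries. These genes were higher than in sham in the groups that let them in, so the counts are a description.

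**Figure D3:**
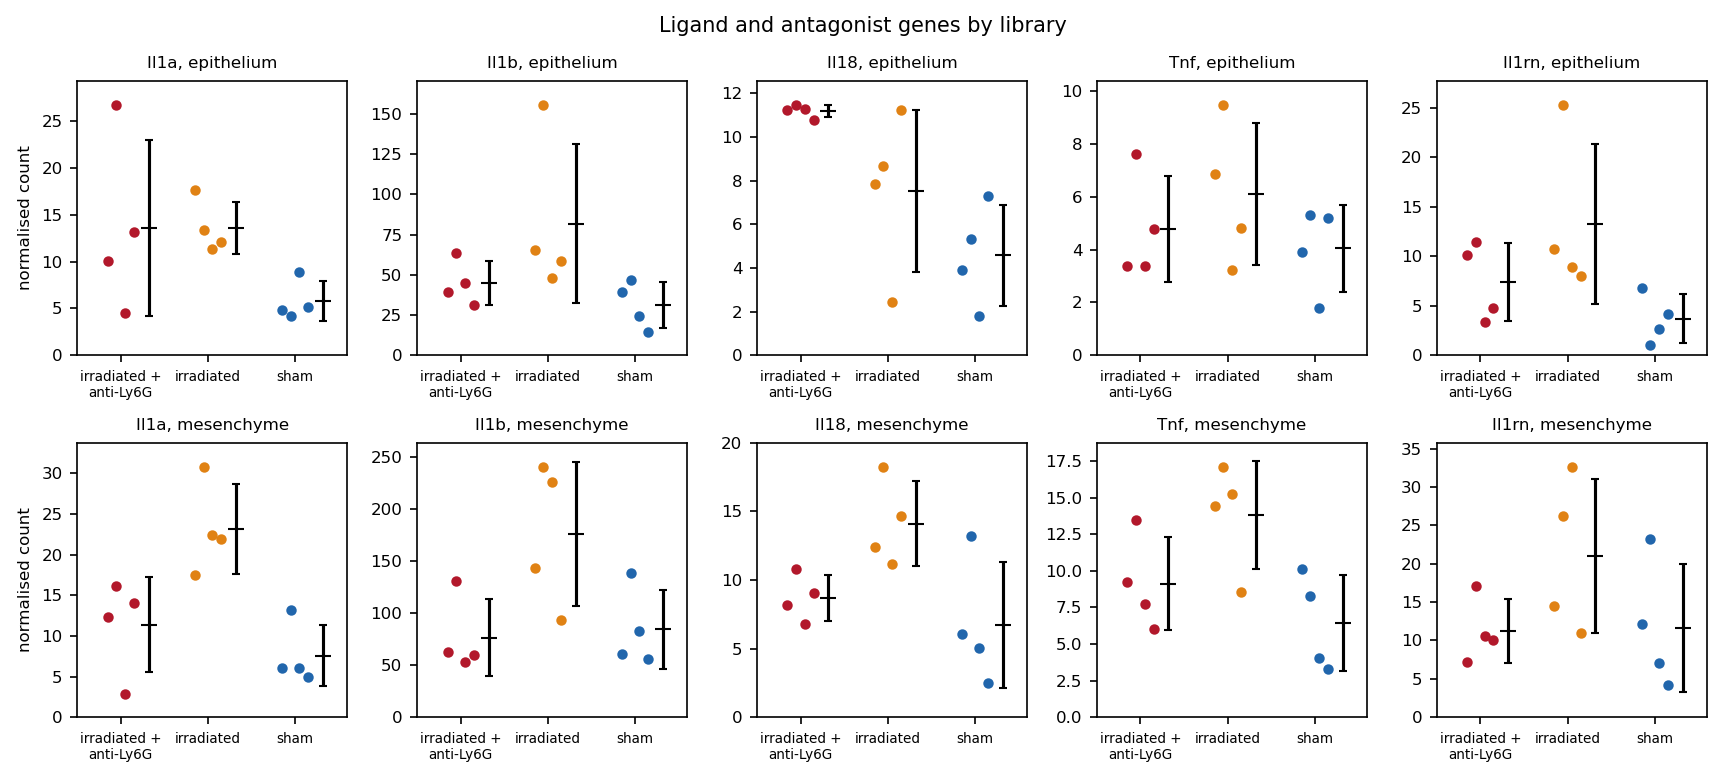
Normalised counts of the 4 ligand genes and of the antagonist gene Il1rn in each library (points), with the mean and SD of each group of 4 (black), in epithelium (top) and mesenchyme (bottom). Irradiated libraries reach 240 for Il1b and 30.7 for Il1a in the mesenchyme, and most groups overlap.

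Genes that IL-1 and TNF are known to induce, a list chosen with earlier results of these data known, were higher in depleted mesenchyme. Of 28 tested genes of this list, 16 were called higher and 0 lower in depleted against irradiated mesenchyme (2.69% of all genes called). The median log2 change of the 28 was 0.73 beside -0.0045 for all tested genes. The members with the largest changes were Cxcl5, a neutrophil-attracting chemokine, the acute-phase gene Saa3, Lcn2, which encodes an iron-siderophore-binding protein, and Csf3, which encodes granulocyte colony-stimulating factor. Saa3 averaged 5783 ± 2493 in depleted and 244 ± 174 normalised counts in irradiated mesenchyme (log2 change 4.73 ± 0.510, adjusted p = 0.00146). Lcn2 averaged 1439 ± 837 normalised counts in depleted and 91.9 ± 63.0 in irradiated mesenchyme, and Csf3 92.9 ± 46.4 in depleted and 6.99 ± 3.51 in irradiated mesenchyme. Cxcl5 averaged 100.1 ± 49.6 in depleted and 1.98 ± 1.17 in irradiated mesenchyme, the second within what a count of 0 allows, so no fold is given. The irradiated means of Csf3 and Cxcl5 were under the filter value of 10. Such genes may have entered the tests through the depleted libraries, where they were high. In irradiated against sham mesenchyme 11 of 28 were called higher and 0 lower (median log2 change 0.39), among them Saa3, Cxcl2, Ccl7 and Icam1. In depleted against sham mesenchyme 25 of 28 were higher and 0 lower (median 1.15). Of all tested genes 3.8% and 15.2% were called in turn. Without 1 library at a time the counts were 13 to 17 in depleted against irradiated and 6 to 12 in irradiated against sham mesenchyme (sham replicates 3 and 4 and irradiated replicates 2 and 4 moved the second by over 1.5 times), and with the leukocyte covariate they were 15 and 2. The call of Saa3 in irradiated against sham mesenchyme held only without depleted replicate 4 or irradiated replicate 1 and was lost without each of the other 10 libraries, with adjusted p up to 0.123. That of Cxcl2 was lost without irradiated replicate 2 or 4 or sham replicate 1, 3 or 4, with adjusted p up to 0.0971.

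In the epithelium fewer genes of the list were called. In depleted against irradiated epithelium 1 of 28 was called higher and 0 lower (0.475% of all genes called). It was Saa3, with 509 ± 168 against 34.1 ± 25.1 normalised counts (log2 change 4.02 ± 0.397, adjusted p = 0.00114), and the median log2 change of the 28 was 0.21. Without irradiated replicate 2 the count was 2. After irradiation alone 2 were higher and 0 lower than in sham epithelium (3.14% of all genes called), Saa3 and Lif, a cytokine of the IL-6 family. The count was 1 to 5 without 1 library at a time (sham replicates 1 and 4 and irradiated replicates 1 and 3 moved it). Saa3 was not called there without sham replicate 1, 2 or 4, with adjusted p of 0.0504, 0.0541 and 0.0701 in turn. In depleted against sham epithelium 11 were higher and 0 lower (11.3% of all genes called), led by Saa3, Ccl7, Ccl2 and Lif. With the leukocyte covariate 3 were higher. The difference of the depletion response, epithelium minus mesenchyme, was called for 4 of 26 genes, where 0.596% of all tested genes were called. The 4 were Cxcl5, Lcn2 (-3.36 ± 0.573), Ptgs2 (-1.37 ± 0.231), the inducible prostaglandin synthase, and Sod2 (-1.04 ± 0.181), the mitochondrial superoxide dismutase.

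**Figure D4:**
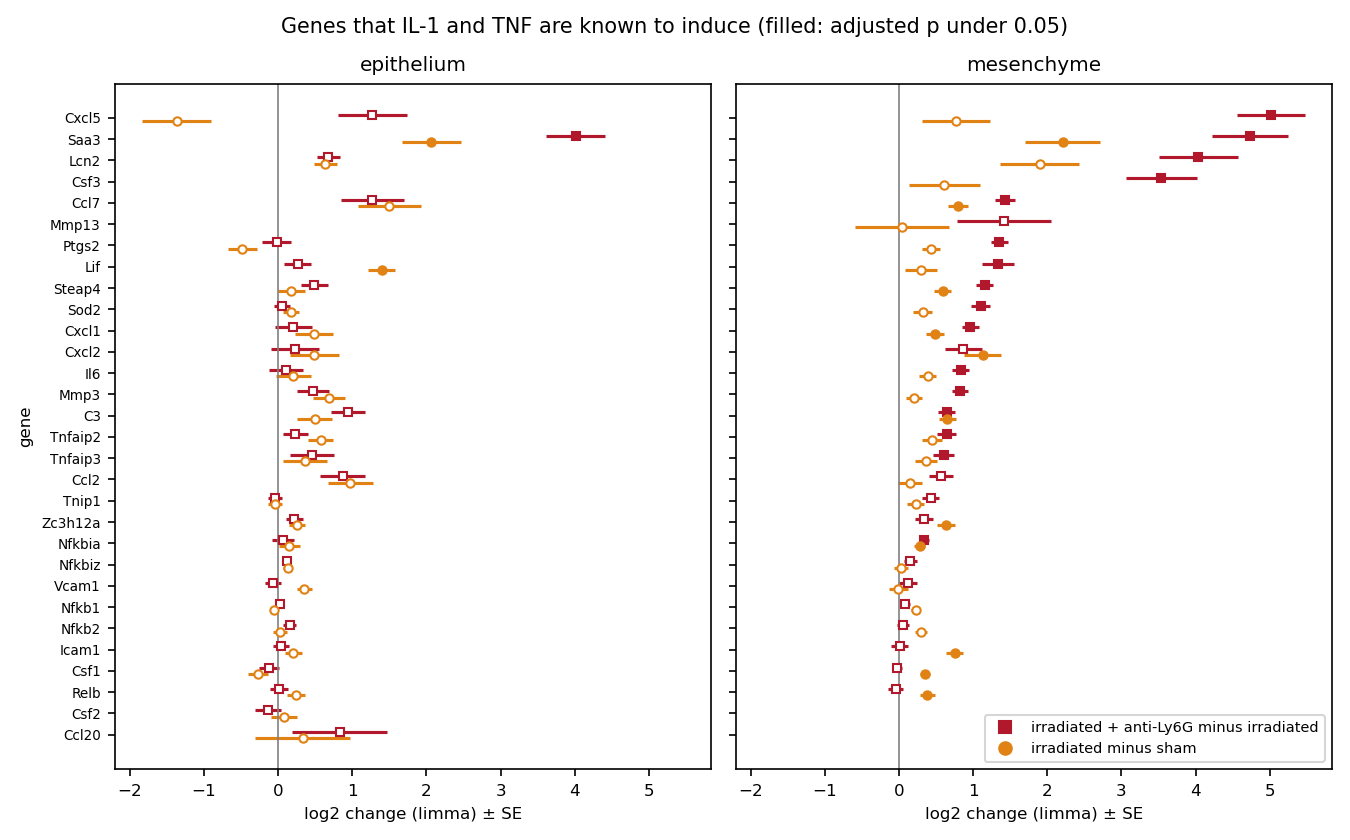
Log2 changes with standard errors from limma for genes that IL-1 and TNF are known to induce, in epithelium (left) and mesenchyme (right), depleted minus irradiated (squares) and irradiated minus sham (circles), ordered by the mesenchymal depletion change. Filled symbols mark an adjusted p under 0.05, 16 of 28 squares in the mesenchyme and 1 of 28 in the epithelium. Of all tested genes 2.69% and 0.475% were called in turn.

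Among 15 other IL-1 family genes 6 were tested in each table. Il33, an alarmin of the family, averaged 1039 ± 264 in depleted and 241 ± 47.3 normalised counts in irradiated mesenchyme (log2 change 2.09 ± 0.179, adjusted p = 7.36e-05), the 1 of 6 called there (2.69% of all tested genes). Its depletion response differed between compartments by -1.94 ± 0.201 (adjusted p = 4.17e-05). Il18r1, the ligand-binding chain of the IL-18 receptor, fell to 1746 ± 163 in irradiated epithelium, against 2415 ± 57.3 in sham epithelium (log2 change -0.47 ± 0.0637, adjusted p = 0.000278). Il18rap, the accessory chain of that receptor, was 39.0 ± 13.5 in irradiated and 15.4 ± 4.47 in sham mesenchyme (log2 change 1.26 ± 0.312, adjusted p = 0.0373), the 1 of 6 called there (3.8% of all tested genes). That count ranged from 0 to 2 without 1 library at a time and moved without depleted replicate 1, irradiated replicates 1, 2 and 3 or any sham replicate. With the leukocyte covariate the log2 change of Il18rap was 0.31 (adjusted p = 0.924) and that of Il18r1 in irradiated against sham epithelium was -0.39 (adjusted p = 0.277), neither called.

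In depleted against irradiated mesenchyme 2.69% of all tested genes were called. Of 25 genes that carry the signal inside the cell, 2 were called higher there and 0 lower. They were Irak3, an inhibitor of IL-1 receptor signalling, with 323 ± 37.0 against 238 ± 7.31 normalised counts (log2 change 0.43 ± 0.104, adjusted p = 0.0374), and Birc3, a ubiquitin ligase of the TNF receptor complex, with 1632 ± 168 against 1284 ± 97.7 (log2 change 0.34 ± 0.0858, adjusted p = 0.0432). Without 1 library at a time this count was 0 to 2, moving with depleted replicates 1, 2 and 4, irradiated replicates 1, 2 and 3, or sham replicate 1 or 3, and with the leukocyte covariate it was 0. Irradiated against sham mesenchyme gave 1 of 25 higher, the kinase gene Map3k8, where 3.8% of all tested genes were called. That count was 0 to 3 without 1 library at a time (depleted replicate 4, sham replicates 1, 2 and 3, and irradiated replicates 2 and 3 moved it). In depleted against sham mesenchyme 7 were higher, where 15.2% of all tested genes were called. In the epithelium 4 of 25 were higher in depleted against sham cells, namely Ripk3, Irak3, Map3k8 and Ripk1. Of all tested genes 11.3% were called there. Without 1 library at a time at least 2 of the 25 were higher (depleted replicate 4 and sham replicate 3 moved the count). Ripk1 was lost without depleted replicate 1, 2 or 4, irradiated replicate 2 or any sham replicate, with adjusted p up to 0.116. With the leukocyte covariate 0 of the 25 were called in that comparison, where adjusted p was 0.337 for Ripk3, 0.268 for Irak3, 0.166 for Map3k8 and 0.559 for Ripk1, and 0 were called in irradiated against sham mesenchyme. In irradiated against sham epithelium limma and edgeR called 0 of 25 and DESeq2 called 2. There 5 had an unadjusted p under 0.05, as 14.3% of all tested genes did. In depleted against irradiated epithelium all 3 tools called 0, and 4 had an unadjusted p under 0.05 (12.4% of all tested genes).

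In the rest of the TNF family, of which 18 genes were listed, the death receptor genes Tnfrsf10b and Fas were higher after irradiation. Tnfrsf10b, the receptor for the ligand TRAIL, averaged 117 ± 17.9 in irradiated and 45.2 ± 3.64 in sham epithelium (log2 change 1.35 ± 0.141, adjusted p = 1.49e-05) and 86.4 ± 17.8 and 28.9 ± 12.6 in irradiated and sham mesenchyme (log2 change 1.64 ± 0.277, adjusted p = 0.00525). Fas was also called higher in irradiated against sham cells of both compartments, with log2 changes of 1.24 ± 0.190 in epithelium and 0.46 ± 0.0997 in mesenchyme. With the leukocyte covariate the call of Tnfrsf10b in mesenchyme (log2 change 1.26, adjusted p = 0.417) and those of Fas in epithelium (adjusted p = 0.265) and mesenchyme (adjusted p = 0.526) were lost. These were 2 of 11 tested genes in the epithelium and 2 of 12 in the mesenchyme, or 1 of 12 without irradiated replicate 2 or sham replicate 3. Of all tested genes 3.14% in the epithelium and 3.8% in the mesenchyme were called. In depleted against irradiated mesenchyme Tnfsf13b, the B-cell survival factor BAFF (log2 change 0.48 ± 0.109), and Fas (0.46 ± 0.0997) were higher, and Ltb, which encodes lymphotoxin beta, was lower, with 3.58 ± 2.45 against 19.0 ± 8.54 normalised counts. The depleted mean of Ltb lay near what a count of 0 allows. Those counts of 2 higher and 1 lower of 12 (2.69% of all genes called) fell as far as 0 without 1 library at a time. The call of Tnfsf13b was lost without depleted replicate 1 or 4 or irradiated replicate 1 or 2 (adjusted p up to 0.0815), that of Fas without depleted replicate 4 or irradiated replicate 2, 3 or 4 (up to 0.0825), and that of Ltb without depleted replicate 1 or 4, any irradiated replicate or sham replicate 1 or 3 (up to 0.105).

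Among genes that assemble the inflammasome or release the ligands, few were called. Of 8 tested in the epithelium, 1 was called in irradiated against sham cells, where 3.14% of all tested genes were called. It was Nlrp3, an inflammasome sensor, with 33.1 ± 15.6 against 11.1 ± 6.24 normalised counts (log2 change 1.51 ± 0.367, adjusted p = 0.0302). Its libraries overlapped, and 0 were called with the leukocyte covariate or without irradiated replicate 2 or 4 or sham replicate 1, 3 or 4. In depleted against irradiated mesenchyme 1 of 10 was called, where 2.69% of all tested genes were called. It was Timp3, an inhibitor of the sheddase that releases TNF, with 11960 ± 1979 against 16864 ± 2373 normalised counts (log2 change -0.50 ± 0.116, adjusted p = 0.0315). That call was lost without depleted replicate 1, 2 or 4 or irradiated replicate 1, 3 or 4, with adjusted p up to 0.106. Between irradiated and sham mesenchyme limma and edgeR called 0 of 10 and DESeq2 called 1. There 2 of 10 had an unadjusted p under 0.05, as 21% of all tested genes did.

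Across the 12 mesenchymal libraries the genes whose log2 values followed Il1r1 most closely were Ehd1, Ssh3 and Il6st, with Pearson r of 0.977, 0.976 and 0.976. Those most like Tnfrsf1a were Nlgn2, B4galt5 and Timp1, with r of 0.975, 0.975 and 0.974. For Il1b they were Gm8995, Il2rb and Il18rap, with r of 0.947, 0.927 and 0.922. The libraries share the 3 groups, so these values describe the pattern only.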

How the data were processed

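RNA from sorted lung cells was sequenced as 24 libraries, 4 in each of 6 groups. Per the submitters' processing notes, cutadapt 1.5, STAR 2.2.2a, SAMtools 1.8, RSEM 1.3.0 and DESeq2 were used with GRCm38, and the role of each step and the annotation release are not given in the sources used here. The authors deposited a signal per gene and library, normalised counts, in which reads are scaled by a size factor. Every positive value was a whole multiple of its library's smallest step (tolerance 0.001), which gave back the reads for count tests. In 2 mesenchymal libraries, sham replicate 3 and depleted replicate 4, that step lay within 1% of 1. Symbols came from GENCODE release M21 for 48349 identifiers.

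A gene entered the tests when 4 or more of the 12 libraries of its table had 10 normalised counts or more. A gene low in most libraries could thus enter through a single group where it was high. Values on the scale log2(value + 1), which understates fold changes of low genes, were fitted by limma 3.58.1 (trend, robust) in R 4.3.3, with the 3 groups of a compartment in 1 fit and Benjamini-Hochberg adjustment over all tested genes. The response difference between compartments was fitted over 24 libraries. Alternatives were other pseudocounts and filters, TMM scaling, edgeR 4.0.16 and DESeq2 1.42.0 on recovered reads, only the groups compared, the leukocyte level as covariate, the replicate number as block, and leaving out each library. Marker levels were compared by exact permutation over 70 assignments. The fits were tested on simulated data. A count of 0 allows 3 reads. That limit covers counting error only, because no molecular identifiers mark single molecules. The limma p-values rest on the spread between libraries within groups, pooled over the groups of a fit and drawn towards a trend over all genes. Each group held 4 mice.

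The 9 genes and all lists were chosen with earlier results of these data known. Named from each pathway list were at most 4 called genes per comparison, by size of log2 change, and for 4 gene patterns the 3 genes most like each, of which the epithelial pattern is not reported here.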

Additional observations from a re-analysis of the deposited data

Results flagged for a closer look

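In 6 of 54 groups of 4 libraries the highest or lowest library stood apart from the other 3 by Dixon's criterion (critical value 0.829), which chance meets in about 1 in 20 groups. Irradiated replicate 2 of the epithelium was high for Il1b at 155 and for Il1rn at 25.2 normalised counts. Depleted replicate 2 of the mesenchyme was high for Il1b at 131, and sham replicate 2 of the mesenchyme was high for Il1a at 13.2. In those groups replicate 2 also had the highest leukocyte sum, and its part in these values was not tested. Sham replicate 1 of the epithelium was high for Tnfrsf1a at 761, and sham replicate 4 of the mesenchyme was low for Il1rap at 330.1 normalised counts.

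The response to depletion differed between the compartments for Il1r1, by -0.88 on the log2 scale, epithelium minus mesenchyme (limma, adjusted p = 0.00183), and for Tnfrsf1a, by -0.41 (limma, adjusted p = 0.038).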

How the results depend on the processing

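Of the 9 genes, the number called in irradiated against sham epithelium was 1, and it was 2 by DESeq2, 0 with the leukocyte covariate and 0 to 1 without 1 library at a time. In depleted against sham epithelium it was 2, against 0 with the covariate, 1 with the replicate block and 0 to 3 without 1 library at a time. In irradiated against sham mesenchyme it was 1, against 2 with a pseudocount of 8, by DESeq2 or with only the 2 groups compared, 0 with the covariate, 3 with the replicate block and 0 to 3 without 1 library at a time. For the compartment difference under depletion it was 2, against 1 without a filter or with the replicate block and 1 to 2 without 1 library at a time. The 3 calls in depleted against sham mesenchyme held under each alternative. The cause of these shifts was not tested.

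Signs turned with the leukocyte covariate in irradiated against sham epithelium for Il1b (-0.34), Il1rap (0.24) and Tnfrsf1b (-0.046), in depleted against sham epithelium for Il1b (-0.82), in irradiated against sham mesenchyme for Il1b (-0.057), Il1rn (-0.38) and Il1r1 (0.014), and in depleted against sham mesenchyme for Il1a (-0.18), Il18 (-0.17), Tnf (-0.19) and Il1rn (-0.77). Il1rn there was also -0.053 by edgeR and -0.050 by DESeq2. With Lcp1 in the sum, the Il1b ratio difference turned to 1.19 in irradiated and 0.474 in depleted against sham epithelium. Without 1 library at a time the log2 changes crossed 0 for Il1a (-0.60 to 0.18) and Il1r1 (-0.028 to 0.11) in depleted against irradiated epithelium, Il1rap (-0.030 to 0.11) in depleted against sham epithelium, Il1r1 (-0.052 to 0.029) in irradiated against sham mesenchyme, and Il1b (-0.43 to 0.12) and Il1rn (-0.22 to 0.52) in depleted against sham mesenchyme. The compartment differences did so for Il1b (-0.070 to 0.52), Il1rap (-0.093 to 0.096) and Tnfrsf1b (-0.025 to 0.15) under irradiation and Il1rn (-0.20 to 0.38) and Tnfrsf1b (-0.060 to 0.12) under depletion. None of these was called.

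Whether replicate numbers pair the samples could not be told. Correlations of same-numbered libraries within a compartment were over 0.1 in 1 of 12 pairs in the epithelium and 3 of 12 in the mesenchyme. Between same-numbered epithelial and mesenchymal libraries they were over 0.1 in 7 of 12, the highest being 0.255. With the replicate block, Il1b was called in irradiated against sham epithelium (adjusted p = 0.00365) and mesenchyme (adjusted p = 0.00461) and in depleted against irradiated mesenchyme (adjusted p = 0.00342), and Il1r1 was no longer called in irradiated (adjusted p = 0.0739) or depleted (adjusted p = 0.0553) against sham epithelium. Among all genes the called number was 79 in depleted against irradiated epithelium (32 to 288 under the other settings) and 448 in the mesenchyme (291 to 792). Ligand genes with fewer than 30 reads per library limit what could be detected.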

Other observations

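Markers of lung cell types, in lists chosen after the values were seen, are given as mean log2 levels compared over 54 tests. In the mesenchyme, alveolar fibroblast markers differed by -0.54 between depleted and sham cells (exact permutation p = 0.0286, adjusted 0.140) and by -0.16 between depleted and irradiated cells (exact permutation p = 0.171). Adventitial fibroblast markers differed by 0.10 between depleted and irradiated mesenchyme (exact permutation p = 0.543), and pericyte markers by -0.18 (exact permutation p = 0.114). In the epithelium, mesothelial markers differed by 1.92 between depleted and sham cells (exact permutation p = 0.0286, adjusted 0.140) and by 1.15 between depleted and irradiated cells (exact permutation p = 0.143). The part of these cells in the receptor values was not tested.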
